A study of Mus musculus with 12 samples.

Results

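The collagen and laminin genes of the mouse genome were followed through the cells of the superior mesenteric ganglion (SMG), a sympathetic ganglion beside the gut arteries in which neuroblastoma arises in Th-MYCN mice. Members were chosen by symbol alone, as every gene of a collagen chain (Col, a type number, a and a chain number) or of a laminin alpha, beta or gamma chain, which gave 44 collagen and 11 laminin genes among 32286 features. Their unit was the unique molecular identifier (UMI), which marks 1 captured messenger RNA molecule near its 3' end, and a level is the number of UMIs of a gene in a cell class of 1 mouse after the UMIs of that class were scaled to 1000000 (CPM). Because a UMI does not depend on transcript length, levels were not divided by length, and levels of different genes were compared only through their balance in different classes.

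Collagens are trimeric proteins of the extracellular matrix: fibrillar types such as I, III and V form the cables of connective tissue, type IV forms the sheet-like network of basement membranes, and other types link or decorate both. Laminins are crosses of an alpha, a beta and a gamma chain that lay down the first layer of a basement membrane. In peripheral ganglia and nerves, Schwann cells and vessels rest on basement membranes, and fibroblasts of the endoneurium and perineurium fill the space between them.

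Droplet scRNA-seq covered the SMG of 12 mice of the strain 129+Ter/SvJcl. At the age of 3 weeks there were 10 Th-MYCN+/- mice, called the replicate mice here, and 1 WT mouse, and at 6 weeks there was 1 Th-MYCN+/- mouse. Th-MYCN+/- mice are hemizygous for human MYCN under the tyrosine hydroxylase (Th) promoter, which is active in sympathetic cells, and the labels name no treatment. The study picked the 6-week-old mouse because a tumor was visible at dissection. Each library was 1 mouse, and the ganglion was loosened with an equal mix of collagenase IV and TrypLE Express before loading. Collagenase cuts collagen proteins but not their messenger RNA.

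Libraries held 1147771 to 6388765 UMIs and 522 to 1858 cells that passed filters, 12041 in all, and 92 barcodes of 11948 occurred in more than 1 library. Cells were grouped without the 55 genes and named from markers that held no collagen or laminin: 140 fibroblast-like, 168 mural-like (pericytes and smooth muscle), 532 endothelial-like, 2884 Schwann-like, 2776 ganglion-like and 2993 neuroblast-like cells. All 13 fibroblast, 14 mural and 12 endothelial markers marked their cluster, and the 3 Schwann-like clusters had 7, 7 and 6 of 10. Neuroblast-like clusters had 9, 11 and 6 of 12, and ganglion-like clusters 11, 12, 12 and 6 of 12. A further 2263 cells, with a median of 510 UMIs, stayed without a name. Their best match was neuroblast-like, with 1 of 12 markers. In addition, 242 macrophage-like and 43 T and NK-like cells were not compared. Replicate 2 stood apart: 38.9% of its UMIs were in cells, against 74.1% to 87.1% in the other 9, and it gave no mural-like cell, 10 Schwann-like cells and mostly ganglion-like cells. The 33 WT cells that clustered as neuroblast-like held 0 UMIs of the human MYCN transgene and their profile was estimated as free RNA throughout, so they were left out.

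Free RNA, which leaks from broken cells into every droplet, was estimated in each library from barcodes with at most 100 UMIs. It could account for 82.0% of the collagen and laminin UMIs in ganglion-like cells of the replicate mice (676.5 of 825) and 20.1% in neuroblast-like cells (315.3 of 1568). In the other classes the estimate was at most 0.707%, in endothelial-like cells. Low levels in the neural classes are therefore given beside it.

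Promoter windows from RefSeq (assembly GRCm38.p6), 250 bases before to 50 bases after the start of transcription, were available for 40 of the 55 genes. Those of 5 genes are shown 5' to 3' on the strand of the gene because they belong to the genes on which the results turn. They are the head-to-head pair Col4a1 (chr8:11312777-11313076, minus strand) and Col4a2 (chr8:11312555-11312854, plus strand), the fibrillar Col1a2 (chr6:4505368-4505667, plus) and Col3a1 (chr1:45311288-45311587, plus), and Lamb2 (chr9:108479612-108479911, plus). Capitals mark, on either strand, the CCAAT box, the core GGGCGG of a GC box and the core TATAAA of a TATA box.
Col4a1: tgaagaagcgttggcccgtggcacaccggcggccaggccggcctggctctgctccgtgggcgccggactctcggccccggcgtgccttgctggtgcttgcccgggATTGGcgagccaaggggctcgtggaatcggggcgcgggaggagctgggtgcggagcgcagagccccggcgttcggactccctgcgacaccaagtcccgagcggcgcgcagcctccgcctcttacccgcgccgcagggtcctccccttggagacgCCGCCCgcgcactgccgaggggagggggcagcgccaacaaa
Col4a2: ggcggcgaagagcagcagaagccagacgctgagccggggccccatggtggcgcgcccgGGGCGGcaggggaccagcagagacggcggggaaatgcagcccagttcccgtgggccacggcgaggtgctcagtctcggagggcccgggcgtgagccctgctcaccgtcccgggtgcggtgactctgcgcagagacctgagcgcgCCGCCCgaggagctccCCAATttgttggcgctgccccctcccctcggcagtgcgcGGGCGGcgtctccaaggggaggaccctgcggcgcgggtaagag
Col1a2: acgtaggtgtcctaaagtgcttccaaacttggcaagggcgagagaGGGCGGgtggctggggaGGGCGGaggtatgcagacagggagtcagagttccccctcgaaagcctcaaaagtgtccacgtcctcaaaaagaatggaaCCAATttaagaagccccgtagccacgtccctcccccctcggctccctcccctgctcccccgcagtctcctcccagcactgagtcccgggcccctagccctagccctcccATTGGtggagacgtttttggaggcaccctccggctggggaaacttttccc
Col3a1: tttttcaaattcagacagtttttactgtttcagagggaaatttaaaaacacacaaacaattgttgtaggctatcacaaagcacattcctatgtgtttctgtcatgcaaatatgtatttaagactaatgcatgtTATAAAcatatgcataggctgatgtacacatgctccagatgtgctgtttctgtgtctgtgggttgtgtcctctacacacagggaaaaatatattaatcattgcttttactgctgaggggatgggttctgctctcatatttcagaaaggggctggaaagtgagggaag
Lamb2: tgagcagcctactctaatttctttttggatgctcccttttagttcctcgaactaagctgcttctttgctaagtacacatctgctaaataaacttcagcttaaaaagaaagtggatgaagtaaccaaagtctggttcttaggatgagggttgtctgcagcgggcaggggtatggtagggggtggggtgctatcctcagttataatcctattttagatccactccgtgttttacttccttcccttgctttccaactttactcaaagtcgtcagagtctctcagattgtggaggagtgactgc

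The windows of Col4a1 and Col4a2 shared 78 bases, and in the annotation used for positions (GENCODE M21) the genes themselves overlapped by 22 bases on opposite strands. Col1a2 held CCAAT at 2 places and GGGCGG at 2, Col3a1 held TATAAA at 1 place, and Lamb2 held none of the 3 motifs. Over the 44 windows of the 40 genes, GGGCGG was in 59.1% against 35.7% of the 32851 windows of all genes, CCAAT in 31.8% against 37.4% and TATAAA in 11.4% against 13.6%. These are descriptions of letters in the windows.

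Of the 55 genes, Col4a6 had no UMI in any cell, 11 had 1 to 9, 17 had 10 to 99, 20 had 100 to 999, and 6 had at least 1000. The 6 were Col3a1 (2993 UMIs), Col1a2 (1834), Lamc1 (1307), Col4a1 (1195), Lamb2 (1129) and Lamb1 (1011). In all, 19 passed the filter on low counts and were tested: 6 of 11 fibrillar collagens, 2 of 6 network-forming, 3 of 6 beaded filament, 1 of 9 FACIT (collagens attached to fibrils), both multiplexins, 2 of 5 laminin alpha, 2 of 3 beta and 1 of 3 gamma chains. None of the 4 transmembrane or 6 other collagens passed. A gene passed where enough sums reached a set CPM, which 1 UMI reaches more easily in the small fibroblast- and mural-like sums. Col6a2 passed with 120 UMIs, and Col14a1 did not with 414. The 19 are therefore the members better detected in at least some sums and do not stand for both families.

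**Figure D1:**
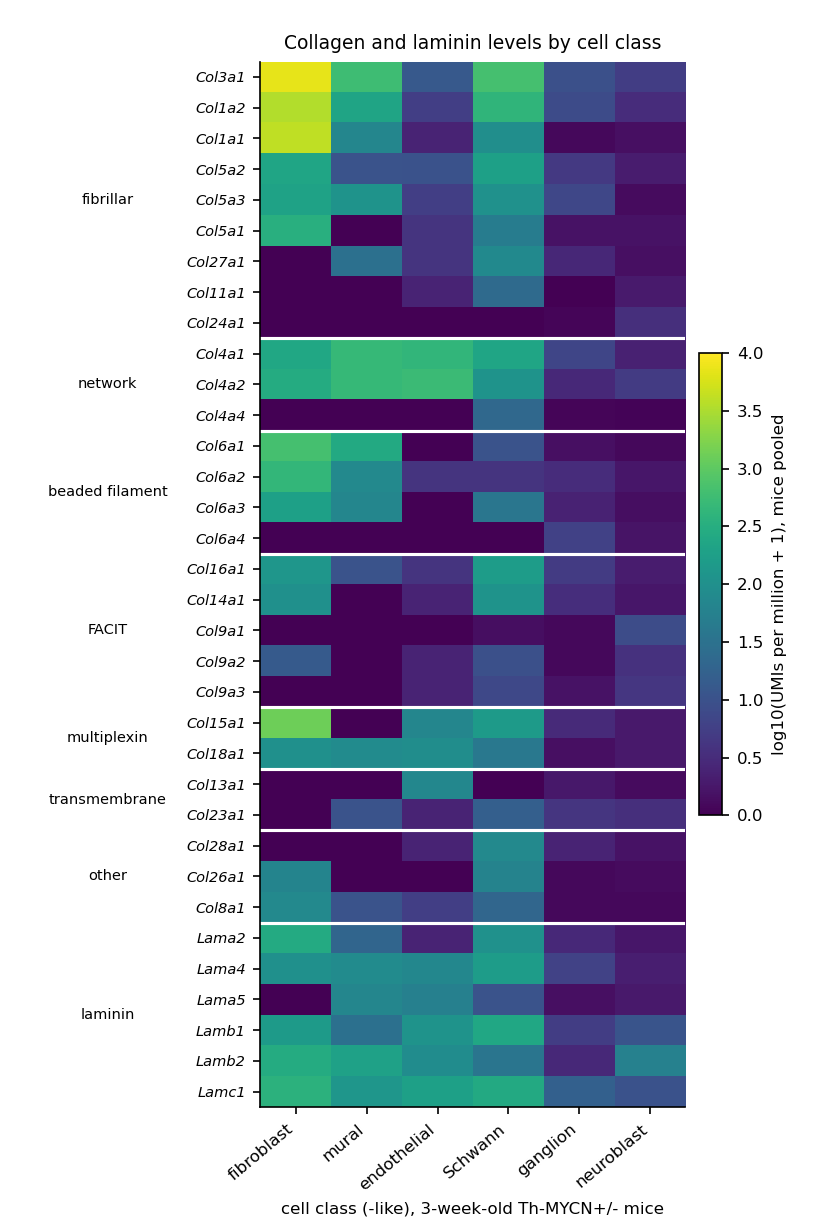
Pooled level of each better detected gene in 6 cell classes of the 10 Th-MYCN+/- mice at 3 weeks, as log10 of CPM plus 1, with genes in rows grouped by role. Col3a1, Col1a2 and Col1a1 are brightest in fibroblast-like cells, Col4a1 and Col4a2 in mural- and endothelial-like cells, and Lamb2 is brighter in neuroblast- than in ganglion-like cells.

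Fibroblast-like cells held the most collagen per UMI, and Schwann-like cells held the most collagen in total. Where 3 levels are given for a class, they are those of the lowest, the median and the highest mouse. Replicate 2 held only 5145 UMIs in Schwann-like cells, so 1 UMI there made 194 CPM. From 1 to 3 UMIs it set the highest Schwann-like level of Col4a1, Col5a2, Col16a1, Lama2 and Lamb2, among others. The summed level of the 44 collagens was 11801, 19827 and 30387 CPM in fibroblast-like cells of 9 mice. It was 2271, 2819.9 and 3802 in Schwann-like cells of 10 mice. In mural-like cells of 9 mice it was 917, 2099 and 4626, and in endothelial-like cells of 10 mice 715, 1307 and 2317. No mouse of any other class reached the lowest fibroblast-like value, whereas the mural-, endothelial- and Schwann-like ranges met. Ganglion-like cells had 51.01, 85.4 and 207, and neuroblast-like cells 25.1, 45.4 and 562, the last in replicate 2, without which the highest was 81.3.

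Schwann-like cells made up 21.0% of all cells of the replicate mice and 9.01% of their UMIs but held 62.7% of the collagen UMIs and 51.1% of the laminin UMIs. Fibroblast-like cells, 0.878% of the cells, held 14.8% of the collagen UMIs and 2.48% of the laminin UMIs. Endothelial-like cells, 4.14% of the cells and 2.48% of the UMIs, held 7.98% of the collagen UMIs and 9.09% of the laminin UMIs. Neuroblast-like cells, 25.9% of the cells and 47.2% of the UMIs, held 5.59% and 25.99%, both below their share of UMIs. How evenly dissociation released the classes was not tested.

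The medians of the 11 laminins, summed, lay closer together. Their level was 360, 1112 and 2133 CPM in fibroblast-like cells, 576, 857 and 1056 in Schwann-like, 91.7, 607 and 986 in mural-like, and 275, 478 and 924 in endothelial-like cells. These 4 ranges overlapped. In ganglion-like cells it was 15.1, 39.1 and 127, and in neuroblast-like cells 53.8, 82.1 and 299.8, with a highest of 107 without replicate 2.

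The 13 fibroblast markers, summed, had a median of 99745 CPM in fibroblast-like cells and 1644 in Schwann-like cells (range 972 to 2009), with 2 of the 13 at 0 there. Free RNA was estimated at 0.450% of the collagen and laminin UMIs of Schwann-like cells. The doublet caller marked too few cells to have worked, and the part of fibroblast doublets in the Schwann-like levels was not tested.

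The chains of fibrillar types I and III were highest in fibroblast-like cells. Col3a1, the single chain of type III collagen, had 3412, 7179 and 10902 CPM in fibroblast-like cells, and 509, 609.8 and 1071 in Schwann-like cells. In mural-like cells it had 0, 456 and 1388, and in endothelial-like cells 8 UMIs in all. The fibroblast-like and Schwann-like ranges did not touch. Col3a1 was 3.30 higher in fibroblast-like than in Schwann-like cells on the log2 scale (SE 0.31, adjusted p = 2.00e-13, higher in 9 of 9 mice). All adjusted p-values here are from edgeR's quasi-likelihood test on summed counts with Benjamini-Hochberg adjustment over 3373 genes.

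Col1a2, the second chain of type I collagen, had 360, 3894 and 6118 CPM in fibroblast-like cells and 194, 412 and 587 in Schwann-like cells. The ranges met because 1 mouse had a fibroblast-like level of 360. The difference was 2.96 (SE 0.23, adjusted p = 1.07e-16, higher in 8 of 9 mice). Col1a1, the first chain of type I, had 2133, 4807 and 5562 in fibroblast-like cells and 0, 92.9 and 155 in Schwann-like cells, so every fibroblast-like value was above every Schwann-like value. Its difference was 5.48 (SE 0.24, adjusted p = 2.33e-29, higher in 9 of 9 mice).

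Type I collagen holds more Col1a1 than Col1a2 chains, and the balance of their messenger RNAs differed between the classes. Col1a1 was 55.2% of the UMIs of both chains in fibroblast-like cells (317 against 257 UMIs) and 18.3% in Schwann-like cells (223 against 993). Among mice with at least 20 UMIs of both, the share ran from 45.7% to 62.5% in fibroblast-like cells of 8 mice and from 10.3% to 25% in Schwann-like cells of 9 mice, without overlap. In free RNA it was 34.2%. This pair was chosen after its values were seen, and no test is given. The WT mouse had 59.2% in fibroblast-like (95% Clopper-Pearson interval 49.1% to 68.8%) and 19.6% in Schwann-like cells (12.2% to 28.9%), and the 6-week-old mouse 46.6% (40.1% to 53.2%) and 14.4% (9.95% to 19.9%). Both single mice showed the same order.

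**Figure D2:**
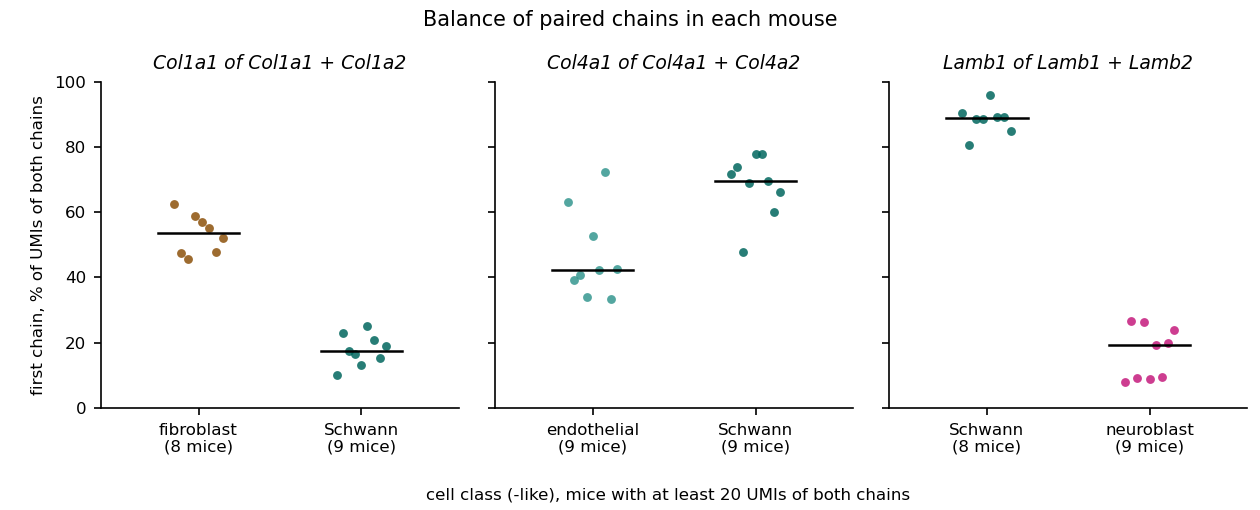
Share of the first chain among the UMIs of both chains, in percent, for Col1a1 with Col1a2, Col4a1 with Col4a2 and Lamb1 with Lamb2. Points are Th-MYCN+/- mice at 3 weeks with at least 20 UMIs of both chains, and lines are medians. The classes do not overlap for the first and last pair and overlap for type IV collagen.

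Type V collagen, which nucleates fibrils and limits their width, was not uniform. Col5a1 had 0, 183 and 1112 CPM in fibroblast-like and 0, 50.5 and 91.5 in Schwann-like cells, a difference of 2.56 (SE 0.47, adjusted p = 2.39e-05, higher in 8 of 9 mice). Col5a2 had 0, 204 and 556 against 111, 184 and 583, and its difference of 0.24 (95% interval -0.62 to 1.11) did not pass the test. Col5a3 gave 0.83 (-0.24 to 1.90), also not past it. Thus of the 6 fibrillar genes tested, 4 were higher in fibroblast-like cells and 2 were not called.

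Across all roles, 10 of the 19 genes tested were higher in fibroblast-like than in Schwann-like cells and none was lower, where 21.1% of all genes tested were called, 10.3% higher and 10.9% lower. The median log2 difference was 1.46 over the 19 genes and -0.16 over all genes. The filter on low counts favored genes seen in the small fibroblast-like sums, so this count and median hold only for the 19. Without the filter 11 members were called, 9 higher and 2 lower, where 5.34% of all genes were called. Beaded filament collagen VI, which links cells to the matrix around them, had its 3 main chains among the 10 genes called with the filter. Col6a1 had 0, 715 and 1440 CPM in fibroblast-like cells and 0, 5.64 and 76.9 in Schwann-like cells (difference 6.37, SE 0.52, adjusted p = 4.32e-15, higher in 8 mice and lower in none). Col6a2 differed by 7.47 (SE 0.64, adjusted p = 3.53e-15) and Col6a3 by 2.63 (SE 0.58, adjusted p = 0.000429). For Col6a3 6 of 9 mice were higher and 3 lower.

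Col15a1, a multiplexin found at the outer face of basement membranes, had 0, 1532 and 2160 CPM in fibroblast-like cells and 0, 147 and 279 in Schwann-like cells. The fibroblast-like zero was 1 mouse, and the other 8 lay above the Schwann-like range. The difference was 3.24 (SE 0.31, adjusted p = 1.53e-12, higher in 8 mice and lower in none). Lamb2, a laminin beta chain, was also higher (3.14, SE 0.51, adjusted p = 1.26e-06, 7 of 9 mice). Lama2, the alpha chain of the laminin of muscle and Schwann cell basement membranes, had 113, 304 and 1112 against 91.0, 105 and 194, a difference of 1.37 (SE 0.39, adjusted p = 0.00689, higher in 9 of 9 mice). Its call did not pass under 6 of the alternative settings, among them DESeq2 (0.56, adjusted p = 0.259) and edgeR without replicate 4 (1.21, adjusted p = 0.0512). With stricter cell filters Lamb2 was at 1.16 and was not called (adjusted p = 0.607 by edgeR).

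Most tested genes of the core basement membrane were not called between these classes. The differences were 0.01 for Col4a1 (95% interval -1.07 to 1.10), 1.35 for Col4a2 (0.30 to 2.40, adjusted p = 0.0653), 0.44 for Lamc1 (-0.38 to 1.27), -1.002 for Lama4 (-2.26 to 0.26) and -0.91 for Lamb1 (-2.19 to 0.37). With DESeq2, Lama4 and Lamb1 were called lower in fibroblast-like cells, at -1.77 and -1.78. The multiplexin Col18a1 (1.46, adjusted p = 0.132) and the FACIT Col16a1 (-0.37, adjusted p = 0.755) were not called either. Sums of fibroblast-like cells were small, so wide intervals remained.

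**Figure D3:**
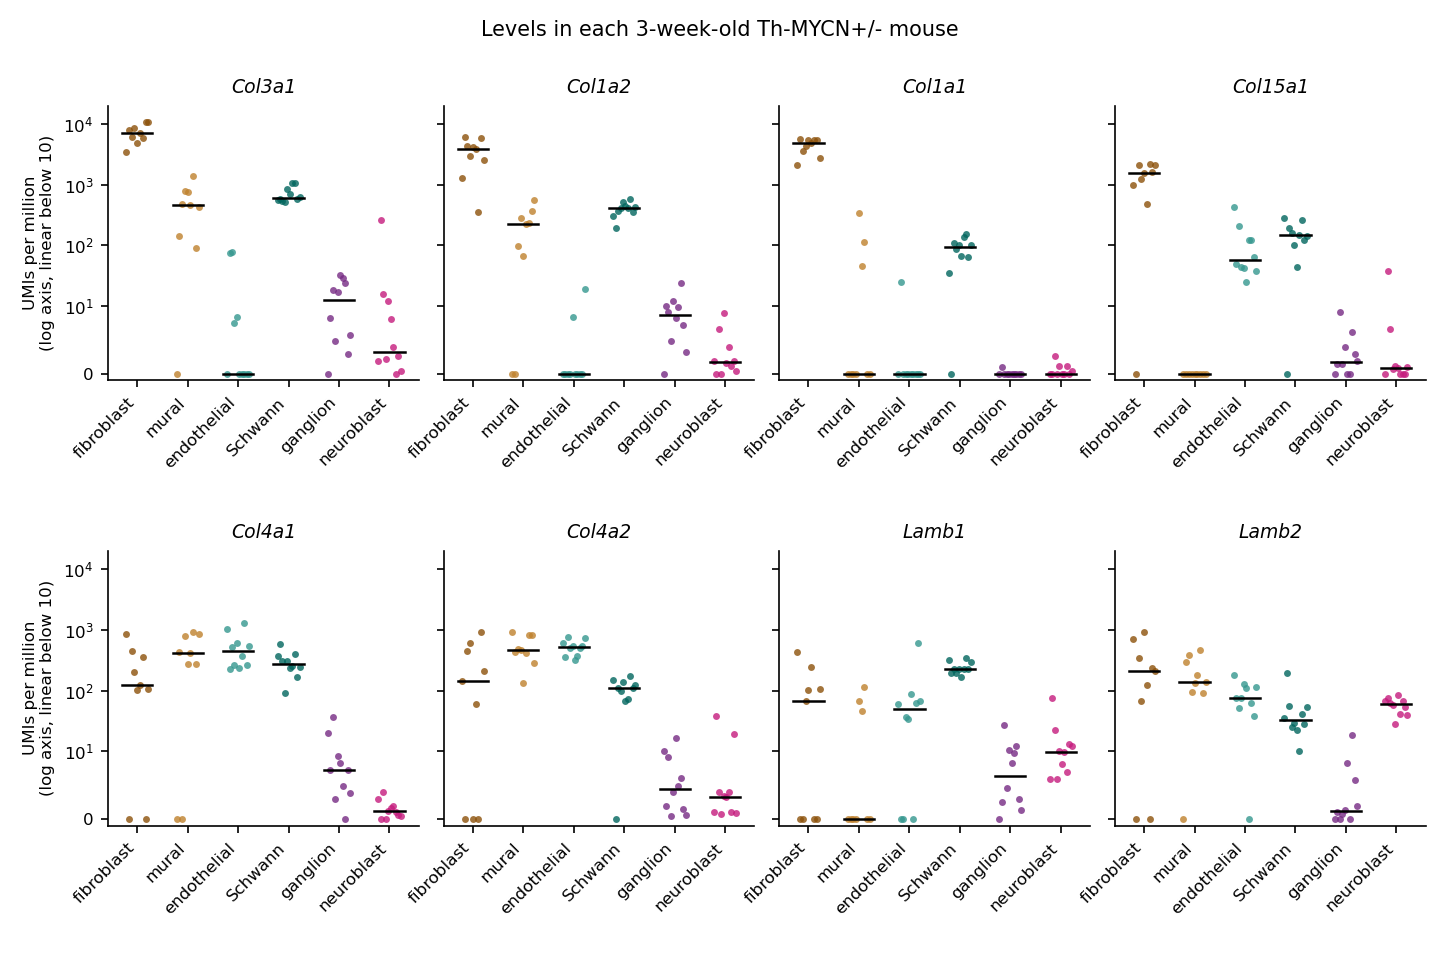
Level of 8 genes in each Th-MYCN+/- mouse at 3 weeks, in CPM on a log axis that is linear below 10, with 1 point a mouse and a line at the median, for 6 cell classes. Col3a1, Col1a2 and Col1a1 are highest in fibroblast-like cells, Lamb1 has its highest median in Schwann-like cells, and all neuroblast-like points of Lamb2 (28.0 to 83.02) lie above the highest ganglion-like point (18.3).

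The share of cells with a UMI gave the same order for fibrillar chains when each cell was thinned to 500 UMIs and shallower cells were left out (63 fibroblast-like, 93 mural-like, 301 endothelial-like, 1818 Schwann-like, 2077 ganglion-like and 2613 neuroblast-like cells remained). Col3a1 was seen in 82.5% of fibroblast-like, 27.2% of Schwann-like, 20.4% of mural-like and 0.664% of endothelial-like cells. In ganglion-like cells it was 0.530% and in neuroblast-like cells 0.383%. Col1a1 was seen in 68.3% of fibroblast-like and 4.29% of Schwann-like cells. Median depth before thinning was 758.5 UMIs in fibroblast-like, 947 in Schwann-like, 1144 in ganglion-like and 4465 in neuroblast-like cells, and unthinned values are given with the processing alternatives.

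Against mural-like cells, 9 of the 19 genes were higher in fibroblast-like cells and none was lower, where 12.5% of all genes were called (6.64% higher, 5.81% lower). Among them were Col1a1 (6.23, SE 0.36), Col1a2 (4.11, SE 0.35) and Col3a1 (3.90, SE 0.41), with adjusted p-values from 3.11e-22 to 1.08e-11, and the beaded filament chains Col6a1 (1.77, SE 0.49, adjusted p = 0.009) and Col6a2 (2.78, SE 0.64, adjusted p = 0.00102). Col15a1 had no UMI in mural-like cells, so its level was at least 46.7-fold higher in fibroblast-like cells when 3 counts over the mural-like cells were taken as the limit, and that of Col5a1 at least 11.2-fold higher. Lama2 rested on 2 mural-like UMIs and Col5a2 on 1, with ratios of 14.7 (95% counting interval 3.60 to 129) and 23.8 (3.73 to 996). The call for Col6a1 was lost with DESeq2 (1.19, adjusted p = 0.431). Type IV collagen and the remaining laminins were not called, with Col4a1 at -0.74 and Col4a2 at -0.65.

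Vessel cells carried type IV collagen. In endothelial-like cells Col4a1 had 225, 442 and 1304 CPM and Col4a2 had 321, 519 and 748. In mural-like cells the values were 0, 411 and 925 and 135, 467 and 917. Mural- and endothelial-like cells overlapped for both, and the differences of -0.20 (95% interval -0.78 to 0.39) and -0.27 (-0.999 to 0.456) did not pass the test. Both genes were higher in endothelial-like than in Schwann-like cells, Col4a2 by 2.27 (SE 0.29, adjusted p = 6.34e-10, 10 of 10 mice) and Col4a1 by 0.95 (SE 0.21, adjusted p = 0.000137, 9 of 10 mice).

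The pair had a different balance in these classes, although the genes share a start region. Schwann-like cells had 91.0, 279 and 583 CPM of Col4a1 and 0, 111 and 175 of Col4a2. Col4a1 was 66.4% of the UMIs of both in Schwann-like cells (47.7% to 77.8% over 9 mice) and 44.6% in endothelial-like cells (33.3% to 72.4% over 9 mice). The ranges overlapped, the pair was chosen after its values were seen, and no test is given. The overlap of these genes lies at their 5' ends, away from the 3' ends that the assay counts.

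Of the 19 genes, 8 were called between mural- and endothelial-like cells, 7 higher in mural-like cells and 1 lower, where 26.1% of all genes were called (11.8% higher, 14.3% lower). Fibrillar and beaded filament chains made up the 7. Col3a1 had 60 UMIs in mural-like cells and 8 in endothelial-like cells (difference 5.23, SE 0.73, adjusted p = 2.76e-08, higher in 8 mice, lower in none). Col6a1 had 0, 280 and 578 CPM in mural-like cells and no UMI in endothelial-like cells, at least 58.0-fold higher, and Col6a3 was at least 14.5-fold higher. Col1a2 and Col5a3 rested on 3 endothelial-like UMIs each, with ratios of 47.7 (14.4 to 248) and 24.9 (6.71 to 137), and Col6a2 on 2, with a ratio of 24.9 (4.96 to 240.3). Col1a1 had 7 UMIs in mural-like cells of 3 of 9 mice and 1 in endothelial-like cells (ratio 43.5, 5.59 to 1961), and without replicate 6 it did not pass the test (3.22, adjusted p = 0.152).

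Col15a1 was the gene that was lower in mural-like cells. It had 24.7, 56.7 and 427 CPM in endothelial-like cells, with UMIs in all 10 mice, and none in mural-like cells of 9 replicate mice, at least 2.36-fold lower. Col18a1, the source of endostatin, had 0, 80.9 and 202 in endothelial-like cells and did not pass the test against mural-like cells (-0.21, 95% interval -1.44 to 1.02). Col13a1, a transmembrane collagen that was too low for the test, had 45 of its UMIs in endothelial-like cells (0, 56.7 and 206 CPM, 8 of 10 mice), with at most 2 UMIs in any of the fibroblast-, mural- and Schwann-like classes. It is named because of these values.

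Endothelial-like cells differed from Schwann-like cells in 17 of the 19 genes, 4 higher and 13 lower, where 50.6% of all genes were called (24.6% higher, 26.0% lower). The 4 higher genes were Col4a1, Col4a2, Lamb2 (1.35, SE 0.36, adjusted p = 0.00114, 7 of 10 mice) and Col18a1 (1.04, SE 0.38, adjusted p = 0.018, 7 of 10 mice), of which Col18a1 was not called with DESeq2. All 6 fibrillar genes were lower. Col3a1 fell by 5.83 on the log2 scale (SE 0.55, adjusted p = 2.78e-14, lower in 10 of 10 mice) and Col1a2, with 3 endothelial-like UMIs, was 91.0-fold higher in Schwann-like cells (95% counting interval 31.1 to 442). Col16a1, a FACIT with 77.5, 151 and 389 CPM in Schwann-like cells and 2 endothelial-like UMIs, was 53.1-fold higher in Schwann-like cells (14.6 to 440). Col6a3 and Col6a1 had no endothelial-like UMI, which left them at least 7.97-fold and 2.11-fold lower. Calls were lost when 1 mouse was left out: Col15a1 (-0.88, adjusted p = 0.0264) did not pass without any 1 of replicates 4, 5, 9 and 10 (-0.84 to -0.69), Col18a1 without replicate 5, 7 or 10 (0.74 to 0.89), and Col6a1 without replicate 7 or 9. Col6a1 was also lost with DESeq2. The median log2 difference of the 19 genes was -3.98, against -0.05 for all genes, and -1.31 with genes at 0 in endothelial-like cells set to their bound.

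Laminin chains differed in which class held more. Lama2 had 245 UMIs in Schwann-like cells (91.0, 105 and 194 CPM, all 10 mice) and 1 in endothelial-like cells, a ratio of 67.4 (95% counting interval 11.98 to 2672). Lama4, the alpha chain of laminins in vessel walls and nerves, had 0, 160 and 218 in Schwann-like cells and 40.8, 62.1 and 125 in endothelial-like cells (difference -1.15 for endothelial-like, SE 0.33, adjusted p = 0.00261, lower in 9 of 10 mice). Lama5, an alpha chain of mature vessel walls, was too low for the test: it had 0, 48.7 and 126 in endothelial-like cells, 0, 0 and 290.5 in mural-like cells, and no UMI in fibroblast-like cells.

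Lamb1, the common beta chain of developing basement membranes, had 166, 229.8 and 340 CPM in Schwann-like cells and 0, 49.1 and 608 in endothelial-like cells. Its endothelial-like maximum came from replicate 9, which held 48 of 73 UMIs. The difference was -1.31 (SE 0.37, adjusted p = 0.00193, lower in 9 of 10 mice). Lamc1, the gamma chain of most laminins, had 133, 264 and 367 in Schwann-like, 61.0, 199 and 311 in endothelial-like, and 0, 232 and 789 in fibroblast-like cells, and was not called between endothelial- and Schwann-like cells (-0.43, 95% interval -0.98 to 0.12).

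**Figure D4:**
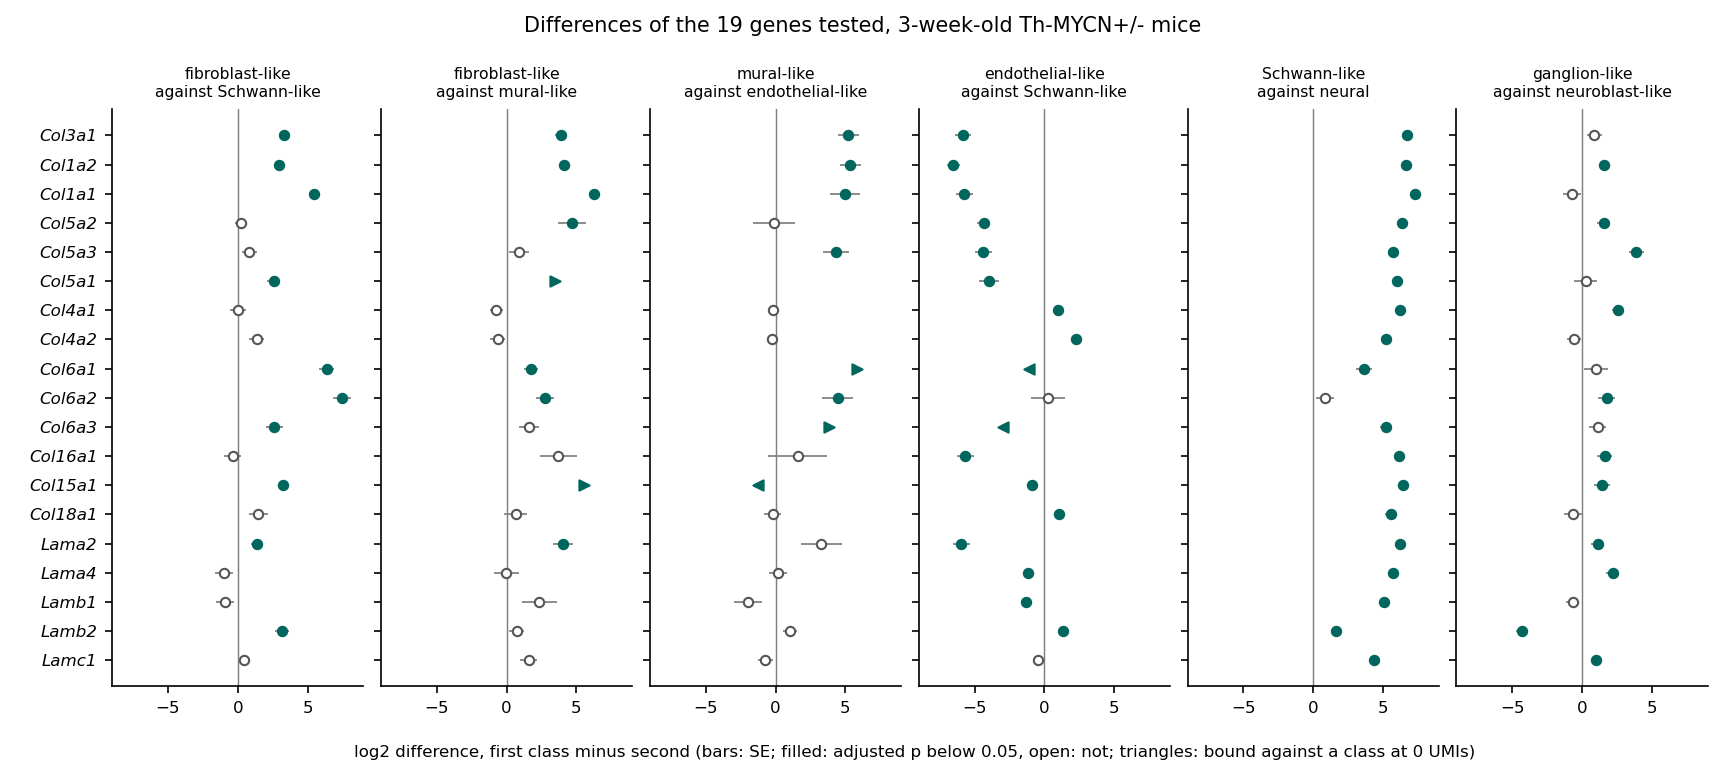
Log2 difference of the 19 genes tested in 6 comparisons between cell classes of Th-MYCN+/- mice at 3 weeks, first class minus second, with bars of 1 SE, filled points below an adjusted p of 0.05 and open points above it. Triangles stand for the bound where 1 class had no UMI, and a gene at or under the limit in both classes has no point. Fibrillar genes lie to the right in both fibroblast-like panels, and all 19 genes lie to the right of 0 in the comparison with neural cells.

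Schwann-like cells were set against the mean of the 2 neural classes (ganglion- and neuroblast-like). Of the 19 genes, 18 were higher and none was lower, where 75.5% of all genes were called (34.0% higher, 41.5% lower). Col6a2 was not called (0.88, adjusted p = 0.213). The fibrillar, network and multiplexin genes differed by 5.21 to 7.32, with Col1a1 at 7.32 (SE 0.29, adjusted p = 1.90e-32, higher in 9 of 10 mice) and Col4a1 at 6.23 (SE 0.23, adjusted p = 4.93e-34, 10 of 10 mice). The 5 laminins differed by 1.62 (Lamb2) to 6.25 (Lama2). Lamb2 lay between the neural classes, with a median of 32.3 CPM in Schwann-like cells (29.7 without replicate 2), 60.4 in neuroblast-like and 1.16 in ganglion-like cells, so its call stands only for the mean of both. The mouse that broke the sign for Col1a1 was replicate 2, whose 10 Schwann-like cells held 5145 UMIs in all.

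Several collagens too low for the test had most of their UMIs in Schwann-like cells, the class with 62.7% of all collagen UMIs of the replicate mice. Col14a1, a FACIT, had 264 UMIs there (0, 98.98 and 183 CPM), and Col28a1, known from the basement membrane around Schwann cells of peripheral nerve, had 181 (0, 72.9 and 134). Both zeros were replicate 2. Col27a1 (187 UMIs), Col26a1 (146), Col11a1 (54), Col4a4 (51), Col8a1 (48) and Col12a1 (20) were also seen mainly there, and are named after their values were seen. Such counts follow class size: Schwann-like cells held 9.01% of the UMIs of the replicate mice and fibroblast-like cells 0.301%. In fibroblast-like cells Col14a1 still had 8 UMIs, Col8a1 6 and Col26a1 5, whereas Col28a1, Col27a1, Col11a1, Col4a4 and Col12a1 had none. The counts therefore give no order of levels between these classes. Col4a3, a partner of Col4a4 in the alternative type IV network, had 2 UMIs in the whole series.

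Schwann-like cells formed 3 clusters. In the replicate mice Col3a1 had 743 CPM in the largest (1651 cells, 95% Poisson interval 701 to 785), 507 in the cluster led by immediate early genes (531 cells, 456 to 562) and 235 in the smallest (3 UMIs in 15 cells, 48.4 to 686). The last interval held the second value, and in the 6-week-old mouse the levels in the same order were 405, 334 and 423. Col4a1 had 254 in the largest and 161 in the second, and no UMI in the 15 cells, which allows up to 289 CPM by the exact Poisson interval. These clusters came from the same cells in which the genes were counted, so no test is given.

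Neural cells held little of either family. In ganglion-like cells, UMIs of Col3a1 (70 seen, 122 estimated as free RNA), Col1a2 (61 and 68.1) and Col4a1 (49 and 42.8) were near or under the estimate. Lamc1 (132 seen, 45.3 estimated) and Col5a3 (51 and 17.2) were above it, as were, named for their values, Col6a4 (42 and 2.62), Col23a1 (27 and 0.204) and Col25a1 (22 and 0.643). Col25a1 is a membrane collagen of neurons.

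Lamb2 had the most UMIs of any member in neuroblast-like cells. It had 28.0, 60.4 and 83.02 CPM in neuroblast-like cells of 10 mice, and 0, 1.16 and 18.3 in ganglion-like cells. Every neuroblast-like value exceeded every ganglion-like value. The difference, ganglion-like minus neuroblast-like, was -4.32 (SE 0.39, adjusted p = 2.34e-15, lower in 10 of 10 mice). Free RNA was estimated at 21.1 of its 709 neuroblast-like UMIs (2.97%). After thinning to 500 UMIs, 2.56% of neuroblast-like and 0.0481% of ganglion-like cells had a Lamb2 UMI, against 2.20% of Schwann-like cells. Lamb2 was not particular to neuroblast-like cells, which held 47.2% of all UMIs of the replicate mice. It had 23 UMIs in fibroblast-like cells (0.301% of all UMIs), 20 in mural-like (0.399%) and 58 in endothelial-like cells (2.48%). Its pooled level per UMI was therefore higher in each of these classes than in neuroblast-like cells.

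The beta chains had opposite balance in Schwann- and neuroblast-like cells. Lamb1 was 87.5% of the UMIs of Lamb1 and Lamb2 in Schwann-like cells (80.6% to 95.7% over 8 mice) and 14.9% in neuroblast-like cells (8.11% to 26.6% over 9 mice), without overlap. The pair was chosen after its values were seen, and no test is given. In the 6-week-old mouse the shares were 83.2% (74.7% to 89.7%) and 6% (2.23% to 12.6%).

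Between ganglion- and neuroblast-like cells, 11 of the 19 genes were called, 10 higher in ganglion-like cells and Lamb2 lower, where 72.4% of all genes were called (43.2% higher, 29.2% lower). Col5a3 (3.89, SE 0.56, adjusted p = 9.56e-09), Col4a1 (2.54, SE 0.43, adjusted p = 4.21e-07) and Lama4 (2.19, SE 0.48, adjusted p = 5.08e-05) were among the 10. Of the UMIs of Col4a1, 49 were in ganglion-like cells (42.8 estimated as free RNA) and 17 in neuroblast-like cells (18.7 estimated), so both counts were near the estimate. Lama4 had 43 (23.7 estimated) and 15 (8.53), and Col5a3 had 51 (17.2) and 4 (8.60). With free RNA subtracted 8 genes were called (70.6% of all genes), of which 7 were among the 11, and Lama2 changed sign, from 1.11 to -0.21. Its call and that of Col15a1 (1.42) also failed without any 1 of 4 mice (replicates 5, 8, 9 and 10 for Lama2, and 1, 5, 8 and 9 for Col15a1).

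Type IX collagen, a FACIT best known from cartilage, has 3 chains, and each was low. Col9a1 had 92 UMIs in neuroblast-like cells of the replicate mice (0, 5.88 and 10.7 CPM, 9 of 10 mice), with 1.56 estimated as free RNA, and 1 UMI in Schwann-like cells. Col9a2 and Col9a3 had median levels of 1.93 and 2.97 CPM in neuroblast-like cells and 8.62 and 5.76 CPM in Schwann-like cells, with ranges that overlapped. Col24a1, a fibrillar collagen, had 30 UMIs in neuroblast-like cells of 8 mice. All 4 are named after their values were seen and were too low for the test.

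Conditions could only be compared with 1 mouse on 1 side, so no test is given, and both single mice were set against the same 10 mice. In Schwann-like cells of the WT mouse, summed collagens were 2412 CPM (95% Poisson interval 2218 to 2619) and laminins 854 (739.7 to 980.1), both inside the range of the 10 mice. Of 20 members with at least 10 UMIs, seen in that mouse or expected there from the mean of the 10 mice, 4 were past 2-fold from the mean of the 10 mice, where 15.5% of all genes were: Col11a1 (1.22 on the log2 scale), Col15a1 (-1.09), Lamb2 (-1.54) and Col26a1 (-2.54). All 4 lay inside the range of the 10 mice. The mean of Lamb2, 49.4 CPM, was raised by replicate 2, at 194 CPM from 1 UMI. The WT mouse had 4 Lamb2 UMIs, or 17.0 CPM, against a median of 32.3 (29.7 without replicate 2). Lama2, at 208 (154 to 275), was above the range of 91.0 to 194 but less than 2-fold from the mean (0.85). The upper end of that range was 1 UMI of replicate 2, and without that mouse it was 133.

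In Schwann-like cells of the 6-week-old mouse collagens were 2115 (1988 to 2248), just under the range, and laminins 596 (529 to 668), inside it. Of 22 members, 3 were past 2-fold, where 14.1% of all genes were: Col6a3 (1.21), Lama5 (-1.42) and Col26a1 (-1.60). The mean of Lama5, 27.3 CPM, rested on 1 UMI of replicate 2, and the 6-week-old mouse, at 10.2, was above the median of 7.46. Without replicate 2, 4 of 20 members in the WT mouse (12.9% of all genes) and 4 of 23 in the 6-week-old mouse (8.34%) were past 2-fold. Col3a1 was 389.5 (336 to 449), below the range of 509 to 1071, and Lama2 was 75.5 (53.1 to 104), also below the range of the 10 mice. Col6a3, at 65.3 (44.6 to 92.1), was above the range of 0 to 52.8. These intervals cover counting error only.

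**Figure D5:**
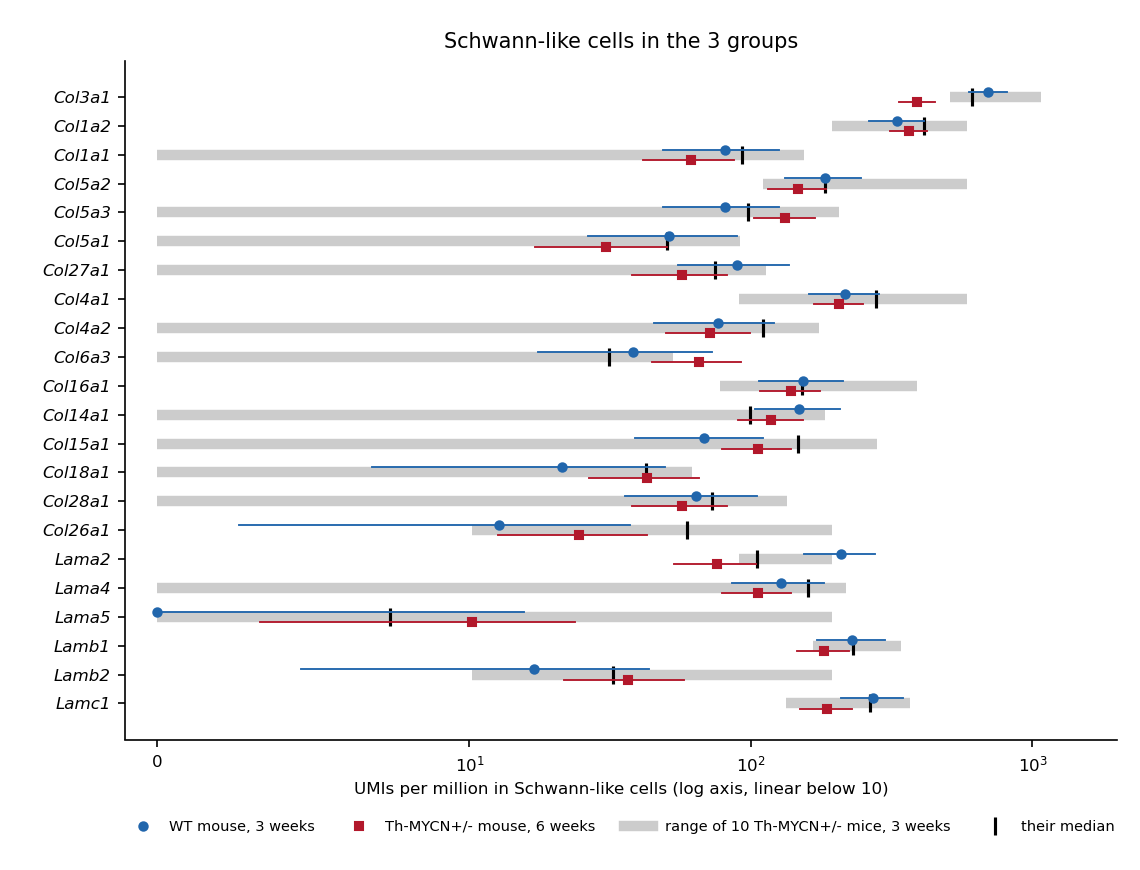
Level of 22 genes in Schwann-like cells, in CPM on a log axis that is linear below 10: the WT mouse (circles) and the 6-week-old Th-MYCN+/- mouse (squares) with 95% Poisson intervals, over the range (grey bar) and median (black line) of the 10 Th-MYCN+/- mice at 3 weeks. Most points lie on the bars, with Col3a1 and Lama2 of the 6-week-old mouse to the left of them, and its Col6a3 and the Lama2 of the WT mouse to the right.

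Endothelial-like cells allowed little. No member was past 2-fold among 3 in the WT mouse (23.4% of all genes) or among 2 in the 6-week-old mouse (18.4%). In the 6-week-old mouse, 5 of 7 members in neuroblast-like cells were past 2-fold and lower (Col3a1, Lamc1, Col16a1, Col4a2 and Lamb1), where 9.67% of all genes were past 2-fold. Without replicate 2, whose 34 neuroblast-like cells were estimated to be 59.9% free RNA, 2 of 4 were. Lamb2 was 54.6 CPM (44.1 to 66.8) against a mean of 57.4, a log2 ratio of -0.07. In ganglion-like cells 6 of 7 were past 2-fold and lower, where 9.40% of all genes were past it, in a class where most member UMIs could be free RNA.

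Fibroblast- and mural-like cells of the single mice are given as values. Collagens in fibroblast-like cells were 13189 CPM in the WT mouse (11648 to 14876) and 21686 in the 6-week-old mouse (19888 to 23602), and laminins 1145 (726 to 1718) and 2023 (1501 to 2667). All 4 values lay inside the range of the replicate mice. In mural-like cells collagens were 2731 (1960.1 to 3705) and 1677 (1051 to 2539), also inside it. Laminins there were 66.6 in the WT mouse (1 UMI, 1.69 to 371), below the lowest replicate mouse at 91.7, and 686 in the 6-week-old mouse (314 to 1302), inside the range.

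The machinery around these proteins was counted from 5 lists, of which few genes passed the filter on low counts. Of 15 genes for hydroxylation, folding and secretion, 3 were tested: all 3 were higher in Schwann-like than in neural cells, where 34.0% of all genes were, led by Serpinh1, the collagen chaperone (6.57, SE 0.21, adjusted p = 1.30e-36), and Serpinh1 (1.79, SE 0.24) and Ppib (0.97, SE 0.22) were also higher in fibroblast-like than in Schwann-like cells. Of 11 genes for processing and crosslinking, 4 were tested and 3 were higher in fibroblast-like than in Schwann-like cells, where 10.3% of all genes were. They were Pcolce, an enhancer of propeptide cleavage (5.74, SE 0.28), and the propeptide proteases Adamts2 (5.52, SE 0.55) and Bmp1 (3.01, SE 0.47).

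Of 8 basement membrane partners, 6 were tested. Against neural cells 5 were higher in Schwann-like cells, where 34.0% of all genes were higher and 41.5% lower, among them the linker Nid2 (6.78, SE 0.29), the proteoglycan Hspg2 (6.55, SE 0.25) and Sparc (6.33, SE 0.34), and Fbln1 was lower (-2.91, SE 0.53). Endothelial-like cells had Fbln1 higher and Fbln2, Nid1 and Nid2 lower than Schwann-like cells, where 24.6% and 26.0% of all genes were. Of 13 receptors, 6 were tested. Itga7, an alpha integrin that binds laminin, was higher in Schwann-like than in neural cells (7.07, SE 0.27) and lower in endothelial-like than in Schwann-like cells (-4.83, SE 0.49). Bcam, a receptor of the chain of Lama5, was higher in endothelial-like than in Schwann-like cells (3.61, SE 0.29, adjusted p = 6.04e-17) and so were Itga6 (1.69, SE 0.21) and Itga1 (1.00, SE 0.33).

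Of 8 degrading enzymes and inhibitors, 3 were tested. Mmp2, a gelatinase, was higher in fibroblast-like than in Schwann-like cells (7.53, SE 0.47, adjusted p = 1.26e-19), and Timp2 (0.95, SE 0.25) with it, whereas the inhibitor Timp3 was lower (-2.05, SE 0.38). In ganglion- against neuroblast-like cells all 6 receptors and all 3 of these genes were higher, where 43.2% of all genes were. Of these, 5 receptors, Timp2 and Timp3 were also higher in Schwann-like than in neural cells, and Bcam and Mmp2 were lower. Free RNA was estimated at 9.92% to 60.5% of the ganglion-like sums. In neuroblast-like sums it was 2.11% to 12.1%, and 59.9% in replicate 2. The part of free RNA in these genes was not estimated. Between mural- and endothelial-like cells no folding gene was called, and 3 receptors were higher (Bcam, Itgb1 and Itga7) and Itga6 lower.

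The remaining members were nearly silent. Col2a1, Col4a3, Col4a5, Col6a5, Col6a6, Col8a2, Col10a1, Col22a1, Lama1 and Lamc3 were among the genes with 1 to 9 UMIs in all cells. Col7a1, Col9a2, Col9a3, Col11a2, Col17a1, Col19a1, Col20a1, Lama3 and Lamb3 were among the 17 genes with 10 to 99. In endothelial-like cells Lama3 had 14 UMIs.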

How the data were processed

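The authors deposited raw UMI counts per gene and barcode, made with Cell Ranger (3.0.2 in the matrix headers) on mm10 with human MYCN added, without selecting barcodes. The gene annotation used was not given in the sources used here. Cells were called by an EmptyDrops procedure (empty barcodes of at most 100 UMIs, 10000 draws, FDR 0.01) and kept with at least 200 genes, at most 10% mitochondrial and at most 60% ribosomal UMIs. Under R 4.3.3, Seurat 5.3.0 (normalization by sctransform 0.4.2) clustered them on 2000 variable genes (30 components, resolution 0.5) without the 55 members, since 28 would otherwise have been among the 2000. Scrublet marked 47 cells (0.390%) and was taken not to have worked, so doublets were not removed.

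Counts were summed per mouse and class (at least 5 cells) and tested with edgeR 4.0.16, quasi-likelihood, mouse as block, at an adjusted p of 0.05. TMM factors were taken from class totals, because factors of single sparse sums gave 9 false calls on simulated data in fibroblast- against Schwann-like cells. The chosen factors gave 0 and recovered 13 of 52 genes changed by 1.5 on the log2 scale there, and 32 of 48 in endothelial- against Schwann-like cells. In the simulation all classes shared 1 gene profile apart from the changed genes, and mice did not differ. Between the real classes 12.5% to 75.5% of the genes tested were called. The simulation therefore cannot give the rate of false calls in these data. The block was kept because both sums come from the same mouse, though deviations of paired sums correlated weakly (from -0.0149 to 0.426). DESeq2 1.42.0 was an alternative. Single mice were compared with the mean of 10 mice, where at least 10 UMIs were present. Levels and intervals (exact Poisson, Clopper-Pearson) cover counting error only. Named genes were fixed chains, plus genes called with the same sign in every mouse, and others where stated. Members and lists were chosen with earlier results of these data known. Separate mice were the replicates, and the labels give no batch. The values of 1 member are not reported here.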

Additional observations from a re-analysis of the deposited data

Results flagged for a closer look

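Of 29 levels scanned over the mice at 3 weeks, 8 had a mouse far from the other Th-MYCN+/- mice, where chance gives about 1 in 20. Replicate 2 gave 4 of the 8 in neuroblast-like cells: collagens at 562, laminins at 299.8, Lamb1 at 74.95 and Lamc1 at 112 CPM. That sum held 34 cells and 26683 UMIs, with 59.9% of it estimated as free RNA and 23 collagen and laminin UMIs against 13.3 estimated as free RNA. In ganglion-like cells, replicate 6 had collagens at 207, and replicate 3 had laminins at 127 and Lamc1 at 82.0 CPM. In Schwann-like cells, replicate 8 had collagens at 3802 CPM. Outside the classes compared, macrophage-like cells held 18 collagen and laminin UMIs and the cells left without a name held 190.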

How the results depend on the processing

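Of the calls for single members, 695 kept their direction and call with 1 mouse left out, 19 lost it and 16, of Col5a1 without replicate 1, 4 or 5 and of Col6a3 without replicate 4, had no test because the gene no longer passed the filter on low counts. Under the other alternatives 843 kept it, 24 lost it, 8 had no test (the same genes with free RNA subtracted) and Lama2 reversed to -0.21 in ganglion- against neuroblast-like cells with free RNA subtracted. With 1 mouse left out, the number of members called ran from 16 to 19 (Schwann-like against neural), 14 to 18 (endothelial- against Schwann-like), 7 to 11 (fibroblast- against Schwann-like, 7 without replicate 4), 8 to 11 (fibroblast- against mural-like), 7 to 9 (mural- against endothelial-like) and 9 to 13 (ganglion- against neuroblast-like). Without the replicate block, which pairs the sums of a mouse, the counts of members in that order were 18, 17, 10, 10, 8 and 11. The shares of all genes were 72.1%, 48.5%, 20.5%, 12.5%, 24.5% and 69.9%. No count of members moved by over 1.5 times, while Col15a1 in ganglion- against neuroblast-like cells was not called without the block (1.03, adjusted p = 0.139 by edgeR). Without a filter on low counts 33, 30 and 22 members were called in Schwann-like against neural, endothelial- against Schwann-like and ganglion- against neuroblast-like cells, where 40.8%, 20.2% and 41.2% of all genes were. In fibroblast- against Schwann-like, fibroblast- against mural-like and mural- against endothelial-like cells 11, 10 and 9 members were called. The shares of all genes there were 5.34%, 2.78% and 7.26%. In the single mice, members past 2-fold were 2 of 13 in WT Schwann-like cells with stricter cell filters (12.9% of all genes) and 1 of 2 in endothelial-like cells of the 6-week-old mouse without replicate 2 (19.2%). In its neuroblast-like cells they were 3 of 6 with stricter filters (9.35%), 2 of 4 with log-normalized clustering (8.95%), 2 of 5 at resolution 1.0 (8.07%), 9 of 11 with free RNA subtracted (14.6%) and 2 of 4 without replicate 2 (7.1%), and in its ganglion-like cells 2 of 3 with free RNA subtracted (11.7%). The cause of these changes was not tested. Shares of cells followed depth. At 200 UMIs Col3a1 was seen in 57.6% of fibroblast-like and 12.6% of Schwann-like cells, Col4a2 in 10.4% of endothelial-like and Lamb2 in 1.22% of neuroblast-like cells, and without thinning the last 3 were 41.6%, 44.2% and 18.4%. Fibroblast- and mural-like cells were few, which limits what their comparisons could call.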
